A study of Mus musculus with 4 samples.

Results

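The carboxylesterase genes described here are 10 genes of mouse liver, Ces1b, Ces1c, Ces1d, Ces1e, Ces1f, Ces1g, Ces2a, Ces2c, Ces2e and Ces3a, chosen from the Ces family with the difference between the 2 genotypes of the study already known. Every probe set annotated to these symbols was taken, which gave 10 probe sets of the 45037 tested. They cover 7 of the 10 genes on probe sets of their own, out of 18193 genes in all. Ces3a was read only by a probe set that the annotation assigns to both Ces3a and Ces3b, and Ces1b and Ces2c had no probe set in the annotation used here and are not described further.

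The study measured liver RNA with 4 Affymetrix expression arrays, 2 from wild-type (WT) and 2 from liver-specific Baf60a knockout (Baf60a LKO) mice, all on the C57BL/6 background. Smarcd1 encodes Baf60a, which belongs to the chromatin remodelling complex SWI/SNF. All mice had high-fat diet for 10 weeks from 6 weeks of age and were fasted overnight before the liver was taken. Each array carried its own RNA pool, and the number of mice per pool, their sex, the driver of the Cre recombinase and any alleles the WT mice carry are not stated in the labels. A p-value therefore measures the spread between pools.

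Carboxylesterases are serine hydrolases that cleave ester, thioester and amide bonds. Most of them sit in the lumen of the endoplasmic reticulum of hepatocytes, where they activate or clear ester drugs and also hydrolyse lipids. Members of the Ces1 group, such as the triacylglycerol hydrolase Ces1d, are known for releasing fatty acids from stored triglyceride for very-low-density lipoprotein (VLDL), while Ces2 enzymes are known in liver and intestine as hydrolases of drugs and acylglycerols. The genes lie on mouse chromosome 8 in clusters of duplicated copies, and paralogs of this kind can share probes, so values of single genes are uncertain to that extent.

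In RefSeq (GRCm38.p6), Ces1c, Ces1e and Ces1g belong to the same run of Ces1 genes, and their promoters are shown because these genes span the smaller, the intermediate and the largest of the lower differences among the Ces1 genes measured. Each line gives the 250 bases before the start site, 5′ to 3′ on the minus strand, with matches to the motifs searched in capitals. Ces1c lies at chr8:93131284-93131533, Ces1e at chr8:93229620-93229869 and Ces1g at chr8:93337210-93337459.
Ces1c: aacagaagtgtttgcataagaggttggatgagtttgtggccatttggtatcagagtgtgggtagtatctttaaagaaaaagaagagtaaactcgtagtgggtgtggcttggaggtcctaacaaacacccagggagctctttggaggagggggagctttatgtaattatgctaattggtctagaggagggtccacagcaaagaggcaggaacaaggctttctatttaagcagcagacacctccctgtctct
Ces1e: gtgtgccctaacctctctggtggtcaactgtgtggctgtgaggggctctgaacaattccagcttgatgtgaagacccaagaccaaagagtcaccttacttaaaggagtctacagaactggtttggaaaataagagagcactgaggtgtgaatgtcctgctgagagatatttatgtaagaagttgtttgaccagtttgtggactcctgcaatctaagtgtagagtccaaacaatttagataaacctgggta
Ces1g: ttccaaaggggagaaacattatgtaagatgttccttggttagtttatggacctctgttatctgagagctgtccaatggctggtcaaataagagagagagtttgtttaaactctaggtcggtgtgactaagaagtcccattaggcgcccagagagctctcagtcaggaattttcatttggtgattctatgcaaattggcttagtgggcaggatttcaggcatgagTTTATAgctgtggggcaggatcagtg

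A promoter window of 300 bases, of which 50 lie after the start site, was found for 7 of the 10 genes, and Ces1d, Ces1f and Ces3a had none in the table used. The windows of Ces1c and Ces1g were 50.7% identical over a global alignment, those of Ces1c and Ces1e 44.1% and those of Ces1e and Ces1g 46%. Across groups, the windows of Ces1g and Ces2a were 46.9% identical and those of Ces1c and Ces2a 48.5%, values within the range of these Ces1 pairs. Within Ces2, the windows of Ces2a and Ces2e were 54.9% identical and those of Ces2a and Ces2c 65%. The closest pair of different genes was Ces1c with a window of Ces1b, its neighbour that was not measured, at 81.6%. The letters searched, on both strands, were AGGTCA and AGTTCA (nuclear receptor half-sites), TATAAA (the TATA box), TGACNNNGC (the core of the antioxidant response element) and GTTAAT (an HNF1 half-site). Of the 5 measured genes with a window, Ces1g had TATAAA on the opposite strand, printed as TTTATA, with its first base at position -26 from the start site, and Ces2a had AGGTCA at position -226. These 2 matches did not overlap any other, and Ces1c, Ces1e and Ces2e had no match to any of the 5 motifs. Over all 32851 promoter windows of the same length, 13.6% held TATAAA, 16.3% AGGTCA, 14% AGTTCA, 12.4% TGACNNNGC and 7.1% GTTAAT.

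Array medians lay between 4.19 and 4.27 on the log2 scale, and the replicates differed with a standard deviation over probe sets of 0.33 in WT and 0.21 in Baf60a LKO. WT replicate 1 stood apart, and WT replicate 2 differed from the Baf60a LKO arrays by 0.27 to 0.28, less than from its own replicate. Smarcd1 read 5.62 and 5.88 in WT and 5.34 and 5.30 in Baf60a LKO (difference -0.43 ± 0.14, SE, limma adjusted p = 0.410, and -0.28 with its probe sets averaged), and since it is not stated which exons were deleted this does not check the genotype. The 7 hepatocyte markers, Alb and Ttr among them, read 10.8 to 14.2 on all arrays. All carboxylesterase probe sets described read above 7.0, whereas the 95th percentile of 27 probe sets for bacterial transcripts was 2.63 to 2.86.

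Within this family the genotypes differed most at Ces1g and next at Ces1e, which were lower in Baf60a LKO livers, while Ces1d, Ces1f and the Ces3a and Ces3b probe set differed by little. Ces2a and Ces2e lay slightly lower. Because the genes were chosen with this contrast known, their differences are given as log2 values with standard errors from a limma fit over all probe sets (2 arrays per group), as a description without a test. In whole liver, fewer cells of a type and less RNA per cell cannot be told apart.

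**Figure D1:**
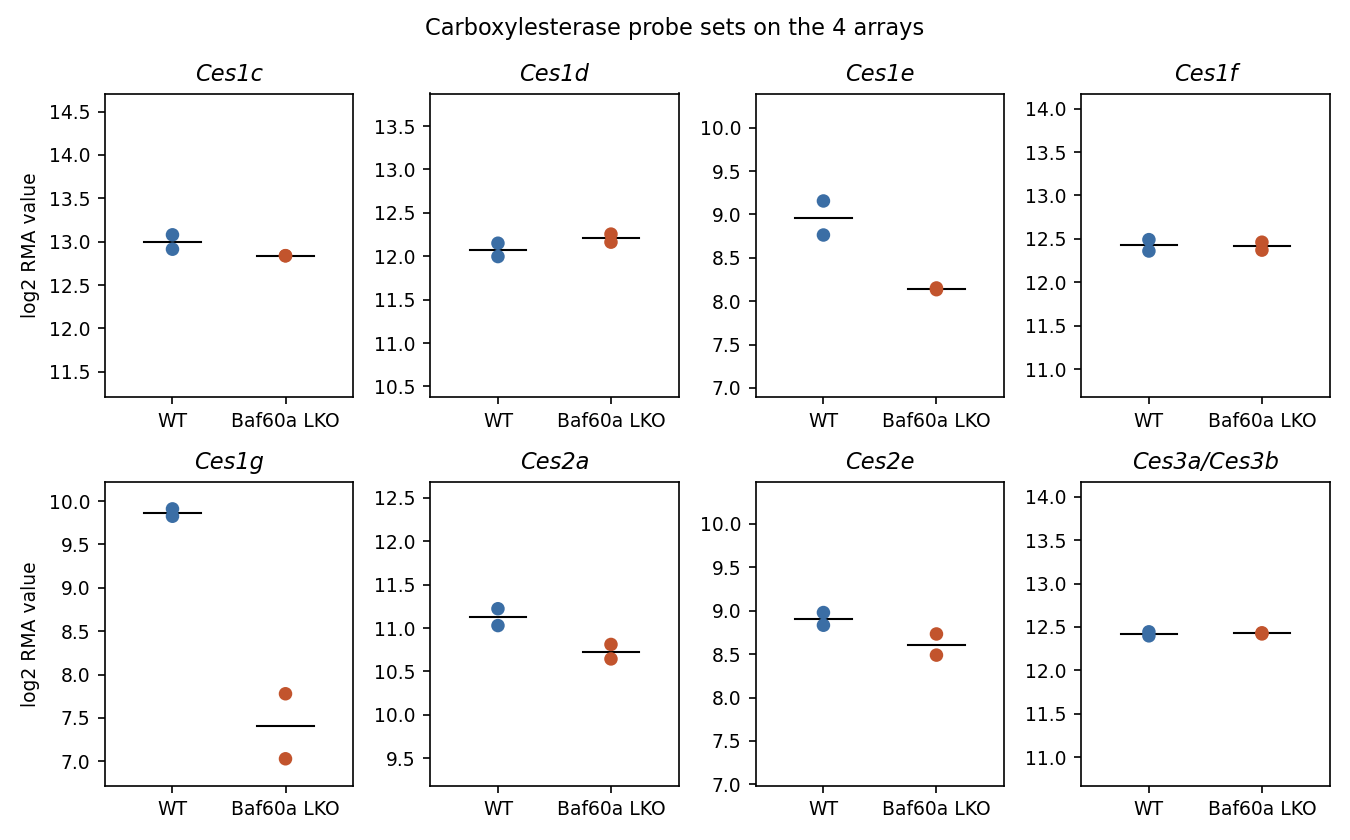
Log2 RMA values of 8 carboxylesterase probe sets (brightest of each gene, and the probe set shared by Ces3a and Ces3b) on 2 WT and 2 Baf60a LKO arrays. Points are arrays, bars are group means, and every vertical axis spans the same range of log2 units. Ces1g has a mean of 9.87 in WT and 7.40 in Baf60a LKO, and Ces1f and the Ces3a and Ces3b probe set show overlapping groups.

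Ces1g, which encodes a triglyceride hydrolase of the hepatocyte endoplasmic reticulum, read 9.83 and 9.91 in WT and 7.03 and 7.78 in Baf60a LKO. Both knockout arrays were far below both WT arrays, and the knockout arrays were also well apart from each other. The difference was -2.46 ± 0.25, or 5.51-fold lower, and 22 of the 18193 genes had a difference as low or lower, Ces1g included. The gap between the knockout replicates, 0.75, exceeded that of 99.7% of genes, whereas the WT replicates differed by 0.085. Against each WT array, Baf60a LKO replicate 1 differed by -2.80 and -2.88 and replicate 2 by -2.05 and -2.13.

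Ces1e, the gene of egasyn, which holds beta-glucuronidase in the endoplasmic reticulum, read 8.76 and 9.15 in WT and 8.13 and 8.15 in Baf60a LKO. The groups did not overlap, and here the WT arrays were the pair that lay apart. The difference was -0.82 ± 0.17, or 1.76-fold lower, and 0.704% of genes had a difference as low or lower. It was -1.01 without WT replicate 1 and -0.62 without WT replicate 2.

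Ces1c, which encodes a carboxylesterase secreted into plasma, read 12.91 and 13.08 in WT and 12.84 in both Baf60a LKO arrays. The knockout values lay just below both WT values, with a difference of -0.16 ± 0.13. This is small beside the change of Ces1g, and it ran from -0.24 without WT replicate 1 to -0.08 without WT replicate 2.

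Ces1d, the triacylglycerol hydrolase that supplies lipid for VLDL, was read by 3 probe sets. The brightest read 12.00 and 12.15 in WT and 12.16 and 12.26 in Baf60a LKO, which just avoids an overlap, a difference of 0.14 ± 0.13 that ran from 0.06 without WT replicate 1 to 0.21 without WT replicate 2, with 0.09 when Baf60a LKO replicate 2 was left out. The second read 11.72 and 11.98 in WT and 11.97 and 12.20 in Baf60a LKO (0.23 ± 0.16), and the one whose name ends in _x_at, which marks probes that may cross-hybridise, read 9.94 and 10.31 in WT and 10.11 and 10.42 in Baf60a LKO (0.14 ± 0.19). On both of these the groups overlapped. On all 3 probe sets the mean was higher in Baf60a LKO, and the differences were close to their standard errors in size.

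Ces1f, a related triglyceride hydrolase, read 12.36 and 12.49 in WT and 12.37 and 12.46 in Baf60a LKO. The groups overlapped and the difference was -0.01 ± 0.13, with a sign that turned in 3 of 10 alternative settings. Its only probe set has a name ending in _s_at, which marks probes that match transcripts of several genes.

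Ces2a, a hydrolase of acylglycerols and drugs, read 11.22 and 11.03 in WT and 10.64 and 10.81 in Baf60a LKO. Both knockout values lay below both WT values, and the difference was -0.40 ± 0.14, or 1.32-fold lower. Ces2e, of the same group, read 8.83 and 8.98 in WT and 8.49 and 8.73 in Baf60a LKO, a difference of -0.30 ± 0.15. Its groups did not overlap, but the closest pair of arrays, WT replicate 1 and Baf60a LKO replicate 2, differed by -0.10. Leaving out 1 array gave -0.50 to -0.30 for Ces2a and -0.42 to -0.17 for Ces2e.

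The probe set that Ces3a and Ces3b share read 12.40 and 12.44 in WT and 12.42 and 12.43 in Baf60a LKO. The knockout values lay between the WT values, and the difference was 0.01 ± 0.12. Which of the paralogs gives this signal was not tested.

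Of the 7 genes with a probe set of their own, 1 was lower past the threshold of adjusted p under 0.05 (limma, Benjamini-Hochberg over all genes), namely Ces1g, 0 were higher and 6 did not pass, where 0.247% of all genes were called lower and 0.236% higher. The genotypes did not overlap in 6 of the 7, 5 lower and 1 higher, where 19.6% of all genes had both knockout values below both WT values and 22.8% had both above. Since the genes were chosen with this contrast known, nothing is read from these counts. Ces1g did not pass with the replicate number as a block, and why was not tested. With 1 array left out, 1 group holds a lone pool, so only the difference of Ces1g is given, from -2.84 to -2.09. After cyclic loess, Ces1e passed as well as Ces1g.

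Set side by side, the 5 Ces1 genes described ran from -2.46 to 0.14 on the log2 scale, a range of 2.60, while Ces2a, Ces2e and the Ces3a and Ces3b probe set ran from -0.40 to 0.01, a range of 0.40. The median difference was -0.16 for Ces1 and -0.30 for Ces2 and Ces3, beside 0 over all genes tested. The means stood in the opposite order, at -0.66 and -0.23, since Ces1g and Ces1e pull the mean of Ces1 down. The order of the medians turned without probe sets ending in _x_at or _s_at, which drops Ces1f and the shared Ces3 probe set, with -0.49 for Ces1 and -0.35 for Ces2. Leaving out WT replicate 1 gave -0.24 and -0.30, leaving out WT replicate 2 gave -0.08 and -0.22, and leaving out Baf60a LKO replicate 1 or 2 gave -0.16 for Ces1 with -0.17 or -0.42 for Ces2 and Ces3. Over all measured genes of each group, a choice made after seeing the data that adds Ces1h to Ces1 and Ces2b, Ces2f and Ces2g to Ces2, the medians were -0.08 over 6 genes and -0.10 over 6, and the ranges 2.60 and 0.66. Ces2b and Ces2f, among the genes added, read close to the bacterial probe sets. The difference between Ces1 and the other groups was not tested. Since the genes described were chosen with this contrast known, nothing is read from the distance of the medians to 0.

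**Figure D2:**
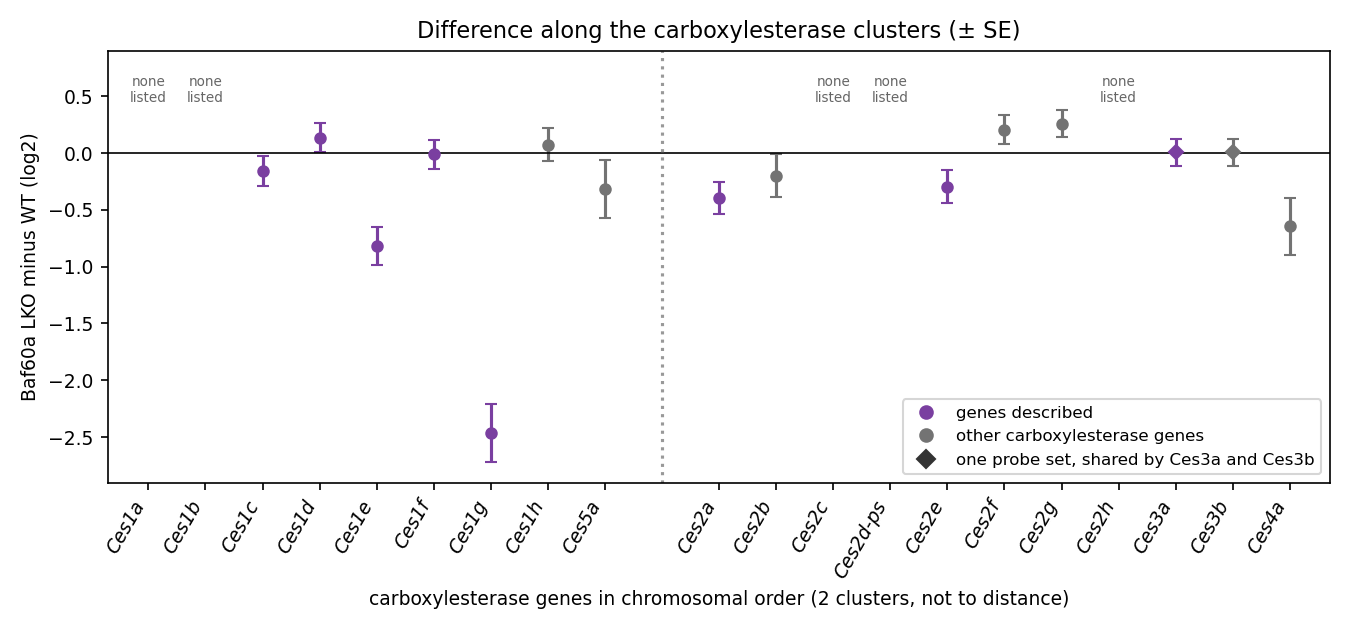
Difference between Baf60a LKO and WT (log2, mean ± SE of the limma fit over probe sets) of carboxylesterase genes in chromosomal order, with the dotted line between the 2 clusters; purple points are the genes described, grey points other family members, and diamonds the probe set shared by Ces3a and Ces3b. Ces1e (-0.82) and Ces1g (-2.46) stand on both sides of Ces1f (-0.01, on an _s_at probe set). Genes marked as none listed have no probe set in the annotation.

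By order along the chromosome, the genes read as lower did not form an unbroken block. Ces1f, at -0.01 ± 0.13, lies between Ces1e and Ces1g, but its only probe set may match transcripts of several genes. Ces1d, at 0.14 ± 0.13, lies between Ces1c, at -0.16 ± 0.13, and Ces1e. Ces1h, the next gene after Ces1g, read 4.98 and 5.13 in WT and 5.24 and 5.01 in Baf60a LKO, and its groups overlapped (0.07 ± 0.14). The 8 measured genes next to the clusters, 2 on each side of each, differed by -0.33 to 0.14, with D230025D16Rik lowest and Ciao2b highest, and none passed (limma, adjusted p 0.465 to 0.970).

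Of the 10 other carboxylesterase genes on the list, 6 had a probe set of their own, and none of these passed the threshold over all genes (limma, 1 at an unadjusted p under 0.05, where 10.2% of all genes lay). Their median was -0.06, with 3 higher and 3 lower. Ces4a read 5.85 and 5.10 in WT and 4.88 and 4.78 in Baf60a LKO, a difference of -0.65 ± 0.25 (adjusted p = 0.489) that was -0.27 without WT replicate 1 and -1.02 without WT replicate 2. Ces2g, of the Ces2 group, read 7.71 and 7.73 in WT and 7.93 and 8.02 in Baf60a LKO, opposite in sign to Ces2a and Ces2e, with a difference of 0.26 ± 0.12 (adjusted p = 0.519, and 0.17 after cyclic loess). Ces5a, the gene of cauxin, differed by -0.31 ± 0.26 with overlapping groups, by 0.06 without WT replicate 1 and by -0.69 when WT replicate 2 was left out. Ces2f read 2.39 to 2.70 on the 4 arrays, at the level of the bacterial probe sets, and Ces2b read 2.69 to 3.22, close to them.

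**Figure D3:**
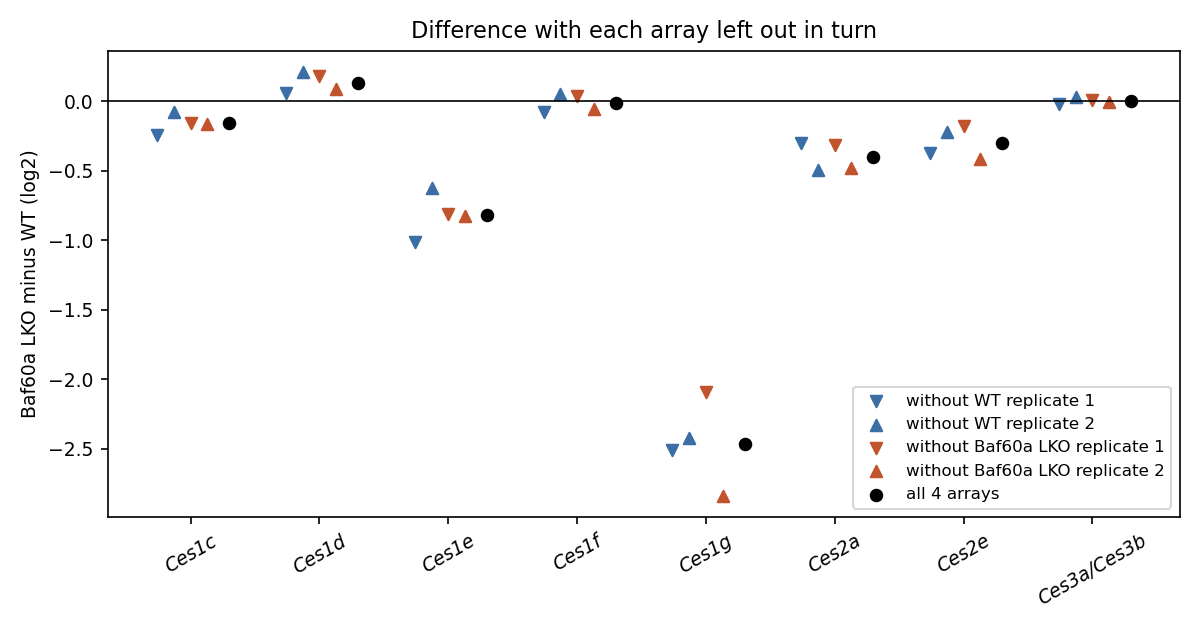
Difference between Baf60a LKO and WT (log2) for each carboxylesterase gene with all 4 arrays (black circles) and with 1 array left out (triangles, blue for a WT and orange for a Baf60a LKO array). Ces1g stays between -2.84 and -2.09 and Ces1e between -1.01 and -0.62, and Ces1f and the Ces3a and Ces3b probe set lie on both sides of 0.

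Leaving out each array in turn kept Ces1g below every other gene of the family shown, at -2.84 when Baf60a LKO replicate 2 was dropped and -2.09 when replicate 1 was. Ces1c, Ces1e, Ces2a and Ces2e stayed below 0 and Ces1d stayed above 0 in all 11 alternative settings tried for them. Most of these settings could not turn a sign. The groups of these genes did not overlap, which fixes the sign with 1 array left out. The brighter genes, the replicate block and the omission of _x_at and _s_at probe sets left these values unchanged. Averaging probe sets changed only Ces1d, which was higher on each of its probe sets. Only the 3 normalizations were free to turn a sign. Over these normalizations Ces1c ran from -0.17 to -0.13, Ces1d from 0.11 to 0.17 and Ces1e from -0.90 to -0.78. Ces2a ran from -0.44 to -0.37, Ces2e from -0.38 to -0.26 and Ces1g from -2.55 to -2.43.

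Genes with related functions did not pass the threshold. Of 19 other lipid ester hydrolases and their regulators, none passed over all genes (limma). By the same fit 3 of them had an unadjusted p under 0.05, beside 10.2% of all genes. Of the 19, 9 were higher and 10 lower, and the median was -0.01. Pnpla7, a lysophospholipase, differed by 0.56 ± 0.19 (adjusted p = 0.433, and 0.37 without WT replicate 2), Ddhd2, a triglyceride lipase, by 0.39 ± 0.15, G0s2, an inhibitor of adipose triglyceride lipase, by -0.37 ± 0.14, and Cel, the dim gene of bile salt-activated lipase, by -0.32 ± 0.25 (0.04 without WT replicate 1 and -0.68 when WT replicate 2 was left out). Of 12 genes of VLDL assembly, the pathway that Ces1d serves, none passed (limma). By the same fit 1 had an unadjusted p under 0.05, beside 10.2% of all genes, and the list median was 0.02. Tm6sf2, which takes part in the lipidation of VLDL, read 7.84 and 7.81 in WT and 8.33 and 8.45 in Baf60a LKO, a difference of 0.56 ± 0.12 (adjusted p = 0.213). Pltp, the phospholipid transfer protein, differed by -0.46 ± 0.18, and by -0.23 without WT replicate 2. Mia2 differed by 0.35 ± 0.20, with 0.08 without WT replicate 1 and 0.62 when WT replicate 2 was left out, and Cideb by 0.16 ± 0.12.

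Other hydrolases of xenobiotics did not pass either. Of 11 measured, none passed, and 2 had an unadjusted p under 0.05 by limma, beside 10.2% of all genes. In this list 6 were higher and 5 lower, and the median was 0.01. The paraoxonase genes Pon2 and Pon3 differed by 0.66 ± 0.18 (adjusted p = 0.331, 0.23 with a gene's probe sets averaged and 0.43 without WT replicate 1) and 0.56 ± 0.13 (adjusted p = 0.249). Cmbl, a prodrug-cleaving hydrolase, differed by 0.23 ± 0.11 and Ephx2, the soluble epoxide hydrolase, by 0.18 ± 0.11.

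**Figure D4:**
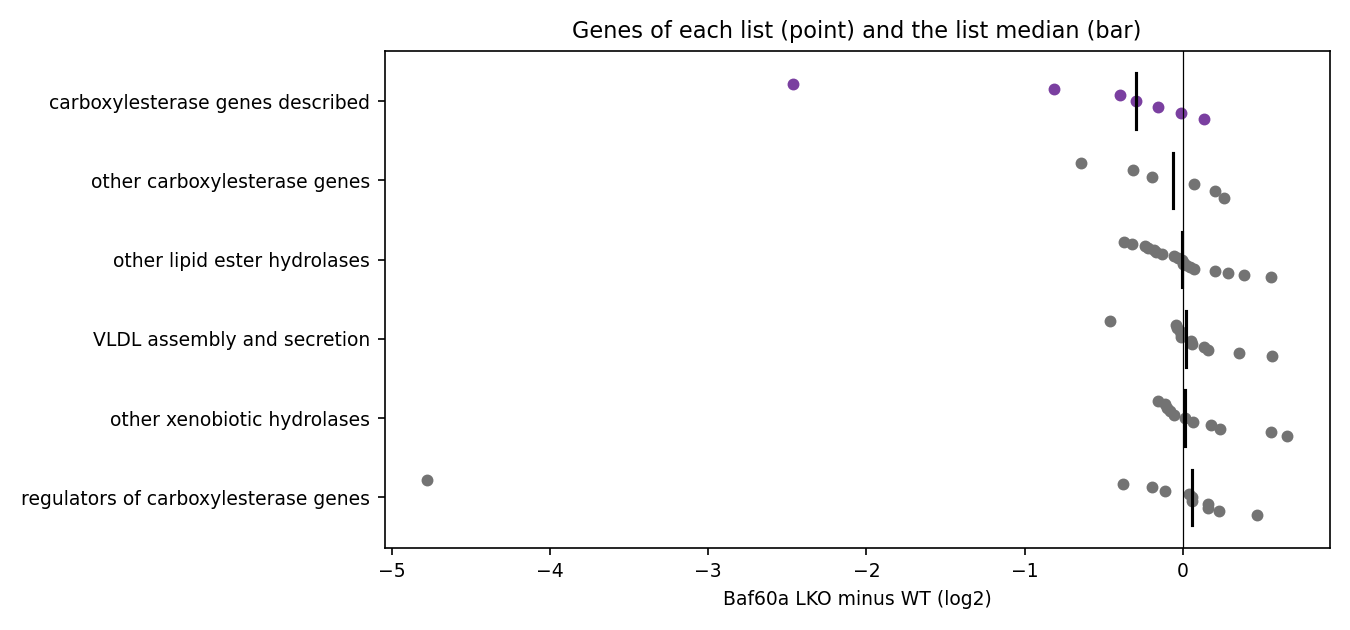
Difference between Baf60a LKO and WT (log2) of the 7 carboxylesterase genes with their own probe sets (purple) and of the genes of 5 lists (grey), 1 point per gene, with a bar at each median. The carboxylesterase median is -0.30, and nothing is read from it, since these genes were chosen with this contrast known. The medians of the 5 lists lie between -0.06 and 0.06, and the point at -4.77 is Nr1i3.

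Among 11 measured transcription factor genes that are known to act on carboxylesterase genes, Nr1i3 fell and 10 did not pass (limma). By the same fit 2 of the 11 had an unadjusted p under 0.05, beside 10.2% of all genes. Nr1i3 encodes CAR, a receptor that responds to xenobiotics, and read 11.2 and 11.3 in WT and 6.33 and 6.58 in Baf60a LKO, a difference of -4.77 ± 0.14 (adjusted p = 0.000591). It did not pass without WT replicate 1 (-4.80) or without WT replicate 2 (-4.75). Nfe2l2, which encodes the antioxidant regulator NRF2, differed by 0.47 ± 0.19 (adjusted p = 0.503), and by 0.20 without WT replicate 1 and 0.73 when WT replicate 2 was left out. Ahr, the dioxin receptor, differed by -0.38 ± 0.12 (adjusted p = 0.414) and Nr1h4, the bile acid receptor FXR, by 0.23 ± 0.12 (adjusted p = 0.559). The list median was 0.06. On the arrays where Ces1g was lowest and next lowest, Baf60a LKO replicates 1 and 2, Nr1i3 read 6.33 and 6.58, and a link between these genes was not tested.

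None of the 34 measured cell type markers passed the threshold, and 3 had an unadjusted p under 0.05 by limma, beside 10.2% of all genes. Of these 3, 2 were among the 4 cholangiocyte markers and 1 among those of enterocytes and pancreas. The means of the 4 cholangiocyte markers were all higher in Baf60a LKO, with a mean log2 level of 4.02 to 4.2 in WT and 4.51 to 4.90 in Baf60a LKO, and the 4 measured adipocyte markers were all lower in their means, at 4.26 to 4.34 and 4.05 to 4.09. Of the adipocyte markers, Adipoq read 2.35 to 2.49 and Lep 2.44 to 2.72, at the level of the bacterial probe sets. Krt7 of cholangiocytes read 3.31 and 3.22 in WT, not far above them. Adipocytes express Ces1d and Ces1f, whose differences were 0.14 and -0.01. The 7 hepatocyte markers had a mean of 12.98 to 13 in WT and 12.94 to 13.01 in Baf60a LKO. For leukocytes (6 markers) the mean was 6.64 to 6.91 and 6.71 to 6.74, for stellate cells and fibroblasts (4) 7.31 and 7.16 to 7.28, for endothelial cells (4) 6.67 to 6.94 and 6.75 to 6.86, and for enterocytes and pancreas (5, some of which the liver expresses) 7.75 to 7.80 and 7.86 to 7.92. The 4 stellate cell and fibroblast markers were also all lower in their means, as were 5 of 6 leukocyte and 3 of 4 endothelial markers. Of the hepatocyte markers 3 of 7 were lower, and of those of enterocytes and pancreas 2 of 5. Single markers that differed more were Epcam of cholangiocytes (1.17 ± 0.21) and Vil1 of enterocytes (0.85 ± 0.15). The part of these markers in the carboxylesterase differences was not tested.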

How the data were processed

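The authors deposited log2 values, 1 per probe set and array, and the submitters' processing notes name RMA, affy and limma, with no versions or genome build. RMA compresses differences of dim genes. Arrays hold no read depth, and their number, 2 per group, limits the precision. Of 45101 probe sets, 64 controls were left out. The platform annotation gave 1 symbol to 34945, of which 34741 were matched to RefSeq by Entrez number; 932 had several symbols and 9160 were not listed. Each gene took its brightest probe set by mean over the arrays, with no filter on level.

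Baf60a LKO and WT were compared in R 4.3.3 by limma 3.58.1 (eBayes after lmFit, 2-sided, 2 residual and 3.54 prior degrees of freedom), with Benjamini-Hochberg adjustment. Standard errors of the carboxylesterase genes come from the fit over 45037 probe sets, and those of other genes from the fit over 18193 genes. The script was tested on simulated data. Promoters are from RefSeq and were aligned with Biopython 1.88, and figures were drawn with matplotlib 3.10.9.

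The members and the gene lists were chosen with earlier results of these data known. The genes named are all members and, per list, those past the threshold and the 4 largest differences in size. The rule for flanking genes was added after the values were seen. Alternatives were 3 normalizations, the brighter 50% of genes, averaged probe sets, no _x_at or _s_at probe sets, eBayes with trend and robust, the replicate number as a block and each array left out, and, added after seeing the data, all measured genes of the Ces1 group and of the Ces2 and Ces3 group. With 1 array left out, the lone pool is assumed to vary like the other group. Protein features planned for the members are not analysed here.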

Additional observations from a re-analysis of the deposited data

How the results depend on the processing

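The number of genes past the threshold was 88 with the settings used, 142 after cyclic loess, 154 with array medians subtracted (91 higher and 63 lower, against 43 and 45), 216 with a trended and robust eBayes and 0 to 17 with 1 array left out (0 without WT replicate 1, where 1630 genes had an unadjusted p under 0.05 by limma). With the replicate block 19 genes passed, 5 higher and 14 lower, and Ces1g was not among them. The replicate numbers share a correlation of 0.143 over genes between same-numbered deviations from the group means, and with 2 pairs they are taken only as numbers. The count of genes of the 5 other lists past the threshold, 1, was 0 to 1 with 1 array left out. The Ces1 median, -0.16 with the settings used, moved to -0.49 without _x_at and _s_at probe sets. In the other 11 settings it ran from -0.24 without WT replicate 1 to -0.075 without WT replicate 2. The brighter genes, averaged probe sets and the replicate block left it unchanged. Over all measured genes of each group, an alternative chosen after seeing the data, the Ces2 and Ces3 median was -0.096 and that of Ces1 -0.084. With 1 array left out Ces5a ran from -0.69 to 0.064 and Cel from -0.68 to 0.035, each above 0 without WT replicate 1. The cause of these changes was not tested. An array left out or a block also leaves fewer degrees of freedom, and the part of this was not tested. Probe sets of other near-identical paralogs could not be separated, and dim genes such as Ces2f and Cel stand close to background.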
